A study of Mus musculus with 8 samples.

Results

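The 34 genes described here encode the Rel family of transcription factors and its inhibitors, and chemokines, cytokines, adhesion molecules and acute-phase proteins that NF-kB signalling is known to control. They were chosen by symbol, with earlier results of these data known, and all 34 had a row among the 21983 gene symbols of the count table. Of these, 29 passed the filter on low counts and were among the 11520 genes tested. The cells were AML-12, an established mouse hepatocyte line from the liver of a mouse with a transforming growth factor alpha transgene, kept in medium with fetal bovine serum. The control group, labelled WT, held 4 libraries of cells with pLKO.1, a lentiviral vector, and the other group held 4 libraries of cells in which Gm47544 was overexpressed; their titles name no vector. The labels name no inflammatory stimulus. They also leave unsaid whether each library had its own culture, and the p-values then measure no more than how these libraries vary, and that variation may be technical.

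NF-kB proteins form dimers that inhibitor proteins of the IkB family hold inactive. Signals from cytokine and pattern-recognition receptors lead to destruction of the inhibitors, and the freed dimers bind kappaB sites in DNA and switch on chemokine, survival and feedback genes, the inhibitors among them. Hepatocytes respond to such signals, and to interleukin 6, by secreting acute-phase proteins.

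Library totals ran from 11016907 to 18965662 counts. Expression differed over most of the transcriptome: 64.4% of all genes tested were called at an adjusted p below 0.05 (quasi-likelihood test of edgeR, adjusted by the Benjamini-Hochberg method, as are all adjusted p-values here), and of all genes tested 32.3% were higher and 32.1% lower in the overexpression libraries. With libraries scaled by their totals alone, 58.3% of called genes were higher, against 50.2% with the trimmed-mean scaling used here, and the median log2 fold change of all genes moved to 0.13. Control library 3 stood apart from its group on the first principal component, at -22.2 against -60.7 to -50.0 for the other controls and 43.4 to 50.4 for the overexpression libraries. Fold changes also followed gene length, from a median log2 fold change of -0.48 to one of 0.44 between the shortest and the longest of 4 equal groups of genes by exonic length. Gm47544 itself was not analysed here, so the labels could not be checked by it. Among hepatocyte markers, Hnf4a and Ttr were abundant while Asgr1 and Cps1 were almost without counts. The macrophage markers Adgre1, Clec4f and Timd4 and the leukocyte markers Cd3e, Ms4a1 and Tyrobp had 0 counts in all 8 libraries. Other macrophage markers were present. Mean CPM in control and overexpression libraries was 1076 and 679 for Cd14, 27.1 and 10.2 for Csf1r, 2.98 and 2.30 for Lyz2, and 1.57 and 1.28 for Cd68. Itgam went the other way, with 10 counts over the controls and 63 over the overexpression libraries, and did not pass the count filter.

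Of the Rel and inhibitor genes among the members, most were lower in the overexpression libraries. The subunit genes Nfkb1, Nfkb2, Rela and Relb and the inhibitor genes Nfkbia, Nfkbib and Nfkbie fell. The Nfkbia call held in only 10 of 20 alternative fits. Of the atypical nuclear members of the inhibitor family, Nfkbiz rose and Bcl3 fell. Of the chemokines among the members, Cxcl2, Cxcl5, Cxcl10 and Cx3cl1 rose and Ccl2, Ccl7 and Ccl20 fell. Chemokines outside the members did not keep to these classes, as Cxcl3 fell and Ccl9 rose. In all, 7 members rose and 15 fell among the 29 tested, or 75.9% called against the background of 64.4%. With the trend on exonic length removed, 8 of the 29 were higher and 8 lower, against a background of 60.6% of all genes called. Under that setting 7 of the 15 decreases remained called. The groups' library values did not overlap for 16 of the 29, against 56% of all genes tested. Of the 16, 6 were higher (28.5% of all genes tested) and 10 lower (27.5%). In bulk RNA, fewer cells of a type and less RNA per cell cannot be told apart. The median log2 fold change of the 29 was -0.34, against 0.000406 over all genes tested.

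**Figure D1:**
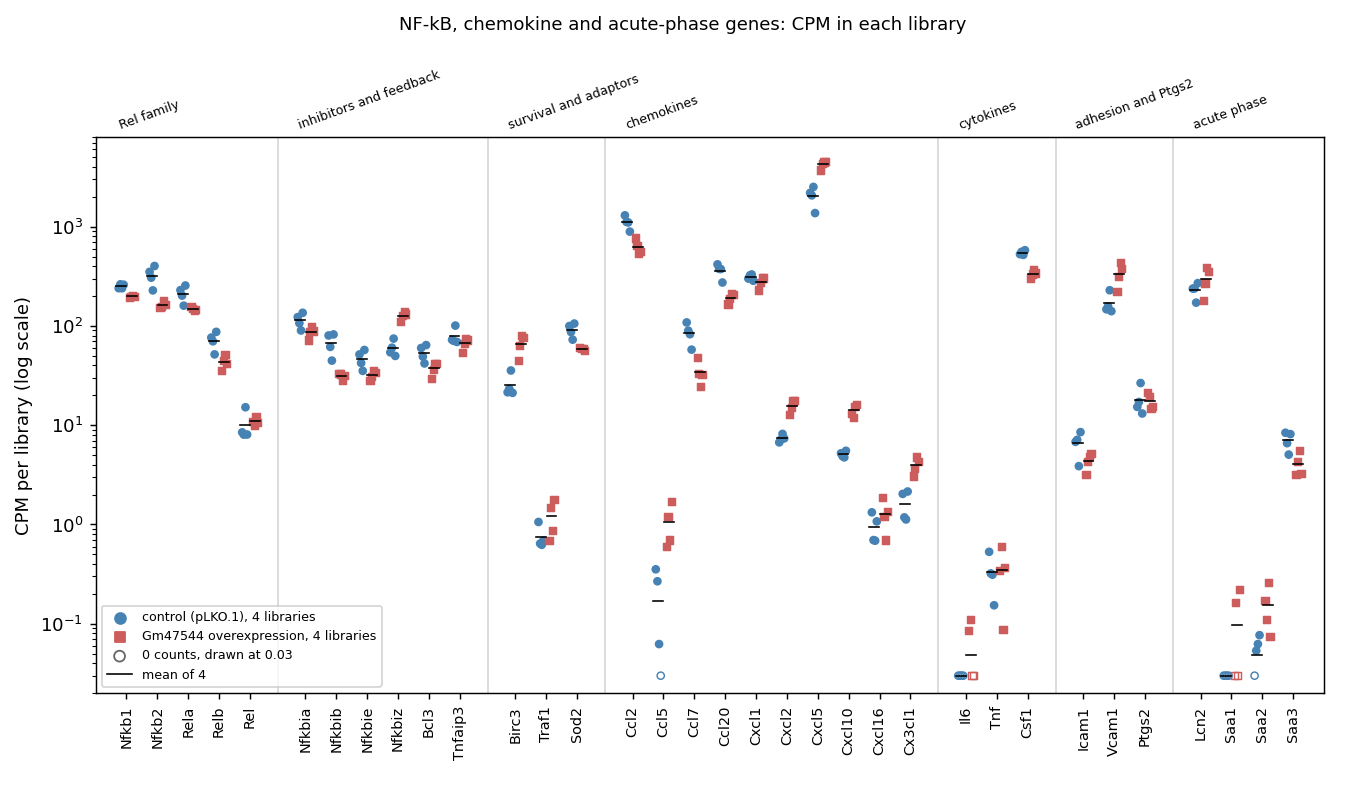
CPM of the 34 genes (the gene's count as a share of the library's scaled total) in each of the 8 libraries on a log axis, grouped by role; circles are control and squares overexpression libraries, bars are means of 4, and open symbols are libraries with 0 counts, drawn at 0.03 CPM. Cxcl5 lies highest, with all 4 squares above all 4 circles, and Il6, Saa1 and Saa2 lie at the lower edge.

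Levels between genes were compared as CPM per kilobase of annotated exon. In control libraries Cxcl5, a chemokine that draws neutrophils, was the highest member at 1093 CPM per kb, which was rank 31 of 11491 genes ranked. Ccl2, the monocyte-attracting chemokine, followed at 969 (rank 38), then Ccl20 at 253, Cxcl1 at 165, Ccl7 at 106, Csf1 at 103 and Lcn2 at 87.5 CPM per kb. In overexpression libraries Cxcl5 reached 2289 CPM per kb, rank 5 of all genes ranked, and Ccl2 stood at 553 (rank 34). The 5 chemokines Cxcl5, Ccl2, Ccl20, Cxcl1 and Ccl7 thus lay above every subunit of NF-kB in controls, where Nfkb2 and Rela, the highest subunits, were at 70.2 and 69.0 CPM per kb, and Cxcl2 and Cxcl10 lay far below, at 3.56 and 2.26. At the low end of the tested members were Rel at 1.33, Cx3cl1 at 0.413, Cxcl16 at 0.313 and Traf1 at 0.0856 CPM per kb. Exon lengths count every annotated isoform, which lowers the per-length level of genes with many isoforms. The order of genes at similar levels therefore depends on the length used. With the median length of coding transcripts instead, Rela would lie above Ccl7 and Ccl2 above Cxcl5 in controls.

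**Figure D2:**
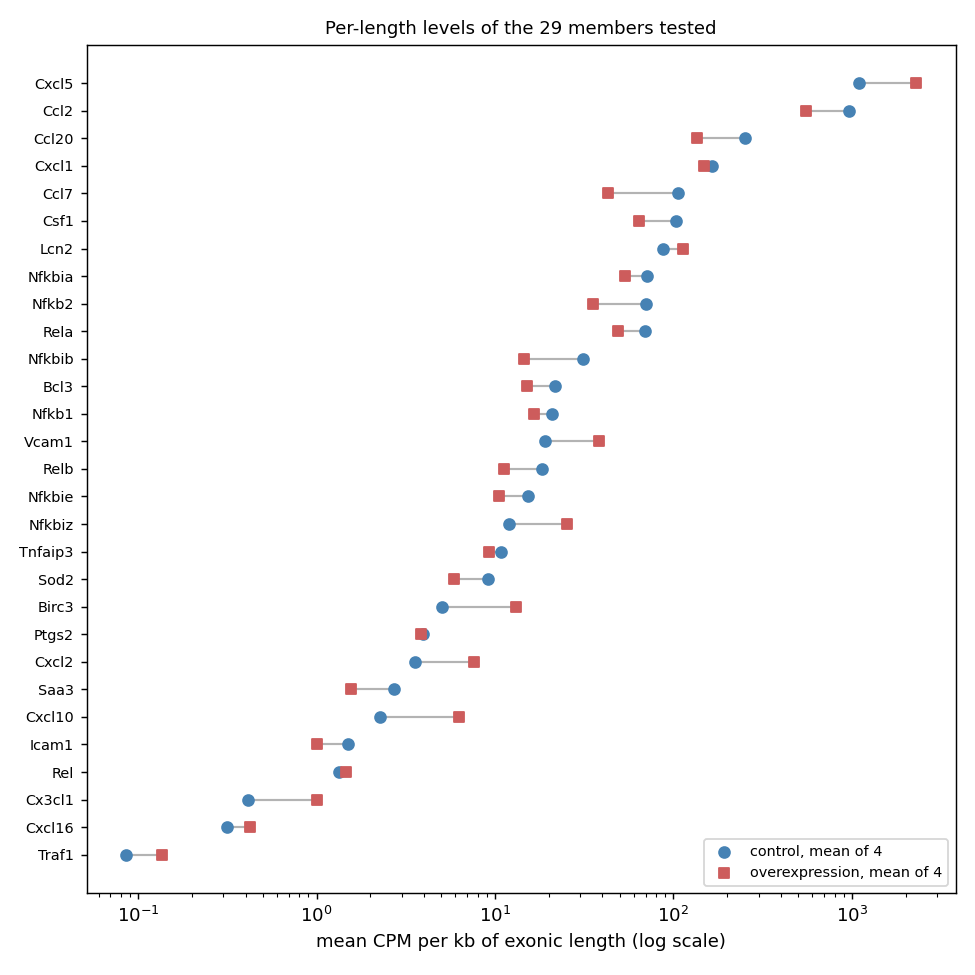
Mean CPM per kb of exonic length of the 29 tested members in control (circles) and overexpression libraries (squares), on a log axis and ordered by the control level. Cxcl5 moved from 1093 to 2289 and Ccl2 from 969 to 553, so the distance between the leading chemokines widened.

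Among the Rel family, 4 of 5 genes fell, where 32.1% of all genes tested were called lower. Nfkb2 encodes the p100 precursor of p52, the subunit of the non-canonical pathway. The gene is at chr19:46304320-46312385 on the plus strand of GRCm38. It stood at 351, 306, 228 and 402 CPM in control libraries 1 to 4 and at 152, 157, 179 and 165 CPM in overexpression libraries 1 to 4, with no overlap. The change was the largest of the family (log2 fold change -0.98, SE 0.15, edgeR adjusted p = 0.000144). Relb, the usual partner of p52, was at 76.4, 70.0, 51.7 and 87.2 CPM in the controls and 35.6, 45.0, 51.5 and 41.8 CPM in overexpression libraries. The groups of Relb touched without overlapping, at control library 3 and overexpression library 3 (log2 fold change -0.71, SE 0.16). Both calls held in all 20 alternatives tried, with Relb at -0.39 once the trend on GC content was removed.

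Rela, which encodes p65, the main activating subunit, was at 229.7, 202, 160.1 and 255 CPM in the controls and at 158, 149.6, 144 and 146 CPM in overexpression libraries. All 4 overexpression libraries lay below the lowest control, which was library 3 (log2 fold change -0.50, SE 0.14, edgeR adjusted p = 0.00578). Nfkb1, the gene for p105 and p50, was at 240.0, 262, 239.7 and 260.3 CPM in the controls and 192, 199, 203 and 199 CPM in overexpression libraries. Its groups were tight and apart, but the change was small (log2 fold change -0.34, SE 0.10). The Nfkb1 call was lost with scaling by library totals alone (log2 fold change -0.21, edgeR adjusted p = 0.0632), and the value was -0.93 with the trend on exonic length removed, -0.52 when the median length of coding transcripts was used in its place and -0.67 with the trend on GC content removed. The Rela value was -0.28, -0.32 and -0.20 under the same corrections, and its call was lost with the exonic length trend removed and a replicate block together (edgeR adjusted p = 0.0678).

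Rel, which encodes c-Rel, a subunit best known from lymphocytes, was the low member of the family. It was at 8.49, 8.04, 15.2 and 8.06 CPM in the controls and at 10.9, 9.96, 12.3 and 10.6 CPM in overexpression libraries. The overexpression libraries lay above 3 of the 4 controls, and control library 3 lay above them all. With that library the log2 fold change was 0.13 (SE 0.21, edgeR adjusted p = 0.595), and without it 0.39 (edgeR adjusted p = 0.0129). The sign turned with the trend on length or GC content removed (-0.14 and -0.24), so no direction is given for Rel.

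The genes for the cytoplasmic inhibitors fell as well. Nfkbib, which encodes IkB-beta, went from 80.2, 61.5, 44.8 and 82.1 CPM in the controls to 33.2, 32.8, 28.1 and 31.8 CPM. Here too the lowest control, library 3, stayed above every overexpression library (log2 fold change -1.09, SE 0.17, edgeR adjusted p = 0.000163), and the value was -0.69 with the trend on exonic length removed. Nfkbie, which encodes IkB-epsilon, was at 51.6, 42.4, 35.3 and 57.3 CPM in the controls and 28.0, 30.8, 35.4 and 34.1 CPM in overexpression libraries. Control library 3 lay among the overexpression values, and the other controls lay above them (log2 fold change -0.54, SE 0.15). The Nfkbie call was lost with the trend on exonic length removed (-0.31, edgeR adjusted p = 0.0523).

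Nfkbia encodes IkB-alpha, the inhibitor that NF-kB induces most rapidly as feedback. It was at 123, 107, 90.0 and 136 CPM in the controls and 72.1, 87.5, 97.4 and 88.9 CPM in overexpression libraries, so the groups overlapped through control library 3. It passed narrowly (log2 fold change -0.39, SE 0.14, edgeR adjusted p = 0.0259), and 10 of 20 alternatives ended or turned the call. Without control library 1 or 4 the edgeR adjusted p was 0.0719 and 0.0737, without overexpression library 1, 2 or 4 it was 0.0886, 0.0557 and 0.0514, and with the trend on exonic length removed the log2 fold change was 0.14. The decrease of Nfkbia therefore depended on the processing more than those of Nfkbib and Nfkb2.

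Nfkbiz encodes IkB-zeta, a nuclear cofactor that NF-kB induces and that is needed for a second wave of target genes. It lies at chr16:55811375-55838899 on the minus strand of GRCm38 and was the single inhibitor gene called higher. Its values were 54.2, 60.4, 74.6 and 49.9 CPM in the controls and 110.0, 127, 138 and 132 CPM in overexpression libraries, with a wide gap between the groups (log2 fold change 1.08, SE 0.14, edgeR adjusted p = 2.91e-05). The call held in all 20 alternatives. Bcl3, another nuclear member of the inhibitor family that works with p50 and p52, went the other way. It was at 59.9, 49.2, 41.9 and 64.2 CPM in the controls and 29.8, 36.7, 41.8 and 42.0 CPM in overexpression libraries (log2 fold change -0.52, SE 0.16). The groups of Bcl3 met at control library 3, and the call was lost with the trend on exonic length (-0.19), on coding transcript length (-0.24) or on GC content (-0.22) removed.

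Tnfaip3 encodes A20, a ubiquitin-editing enzyme that ends NF-kB signalling. It was at 72.6, 70.7, 101 and 69.0 CPM in the controls and 54.3, 66.1, 74.6 and 72.0 CPM in overexpression libraries. The groups overlapped and control library 3 was far above the rest. It was not called (log2 fold change -0.23, SE 0.15, edgeR adjusted p = 0.185), but it was called lower with the trend on exonic length (-0.50, edgeR adjusted p = 0.00279) or on GC content (-0.40) removed.

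**Figure D3:**
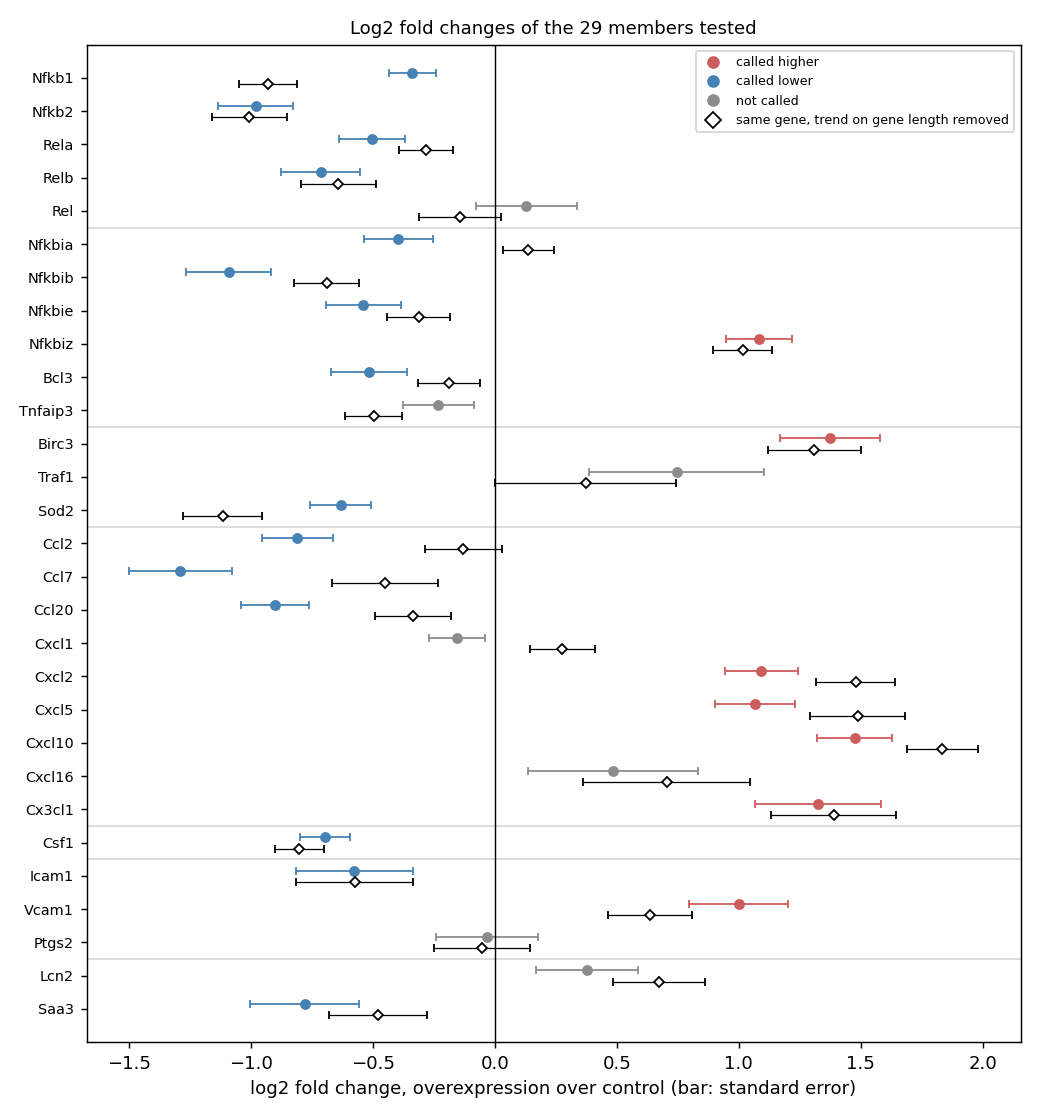
Log2 fold changes (overexpression over control) of the 29 tested members with standard errors, grouped by role; filled circles are coloured by call, and open diamonds give the same gene with the trend on exonic length removed. Nfkb2 stays near -1 and Nfkbiz near 1 on both scales, while the diamonds of Ccl2 (-0.13) and Nfkbia (0.14) lie near 0.

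Of the survival and adaptor genes, Birc3 rose and Sod2 fell. Birc3 encodes cIAP2, a ubiquitin ligase that protects cells from death signalled by tumour necrosis factor receptors. It was at 21.5, 23.3, 35.6 and 21.2 CPM in the controls and 44.6, 63.4, 79.9 and 76.0 CPM in overexpression libraries. Control library 3 was the highest control, still below every overexpression library (log2 fold change 1.37, SE 0.21, edgeR adjusted p = 0.000101). Sod2, the mitochondrial superoxide dismutase, was at 99.8, 86.9, 72.7 and 106 CPM in the controls and 60.5, 59.1, 59.1 and 56.9 CPM in overexpression libraries. Its groups did not overlap (log2 fold change -0.63, SE 0.13, and -1.12 with the trend on exonic length removed). Traf1, an adaptor of tumour necrosis factor receptors, had only 43 and 69 counts over the groups, at 1.06, 0.643, 0.624 and 0.691 CPM in the controls and 0.686, 1.49, 0.871 and 1.79 CPM in overexpression libraries. Its groups overlapped, and it was not called (log2 fold change 0.75, SE 0.36, edgeR adjusted p = 0.0839). It passed the count filter in 1 control and 3 overexpression libraries, and it was called higher in 3 of the 19 alternatives that tested it: without overexpression library 1 (0.92, edgeR adjusted p = 0.0366), with scaling by library totals alone (0.87, edgeR adjusted p = 0.047) and with the trend on GC content removed (1.00, edgeR adjusted p = 0.0226).

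The CXC chemokine genes of chromosome 5 lie close together and differed in their calls; the difference between them was not tested. Cxcl1 and Cxcl2, both ligands of the neutrophil receptor CXCR2, are 10.8 kb apart, and Cxcl5, another CXCR2 ligand, lies 130 kb before Cxcl1 (on GRCm38, Cxcl5 at chr5:90759360-90761624, Cxcl1 at chr5:90891241-90893115 and Cxcl2 at chr5:90903871-90905938, all on the plus strand). Cxcl1 was at 300.0, 324, 330.1 and 285 CPM in the controls and 231, 276, 304 and 303 CPM in overexpression libraries. These values overlapped, and Cxcl1 was not called (log2 fold change -0.15, SE 0.12, edgeR adjusted p = 0.259); its sign turned with the trend on exonic length removed (0.28), and it was called lower with the trend on GC content removed (-0.49, edgeR adjusted p = 0.000861). Cxcl2 was at 6.72, 7.18, 8.18 and 7.37 CPM in the controls and 12.8, 15.0, 17.5 and 17.7 CPM in overexpression libraries. Every overexpression library lay above every control (log2 fold change 1.09, SE 0.15, edgeR adjusted p = 4.95e-05), though Cxcl1 remained far more abundant than Cxcl2 in both groups.

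The bases before the starts of these neighbours show how alike they are at this motif. RefSeq promoter windows on GRCm38.p6 (250 bases before to 50 after a start) were found for 25 of the 34 members and searched on both strands for the kappaB consensus motif, in its usual form with a purine after the leading run of G and pyrimidines before the closing C pair; overlapping matches were counted. Each stretch ends before the first exon base of both RefSeq and GENCODE, reads 5′ to 3′ on the gene's strand, and has the matching bases in capitals. They show a member not called (Cxcl1, chr5:90891141-90891240, plus strand), members that rose (Cxcl2, chr5:90903771-90903870, plus strand; Cxcl10, chr5:92348890-92349058, minus strand) and members that fell (Ccl20, chr1:83116666-83116765, plus strand; Nfkbia, chr12:55492648-55492747, minus strand).
Cxcl1: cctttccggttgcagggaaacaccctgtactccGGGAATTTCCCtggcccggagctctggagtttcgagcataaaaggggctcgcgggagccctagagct
Cxcl2: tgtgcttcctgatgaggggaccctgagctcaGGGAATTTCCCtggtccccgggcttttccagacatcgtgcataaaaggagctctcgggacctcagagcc
Cxcl10: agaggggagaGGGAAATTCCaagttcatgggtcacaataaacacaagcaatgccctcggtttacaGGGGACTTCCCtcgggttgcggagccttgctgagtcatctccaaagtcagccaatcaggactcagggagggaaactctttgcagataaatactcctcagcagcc
Ccl20: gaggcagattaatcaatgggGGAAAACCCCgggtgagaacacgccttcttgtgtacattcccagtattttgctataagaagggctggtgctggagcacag
Nfkbia: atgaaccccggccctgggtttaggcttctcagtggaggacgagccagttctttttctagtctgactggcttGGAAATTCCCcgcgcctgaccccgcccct

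Cxcl1 and Cxcl2 carried the same run, GGGAATTTCCC, beginning 71 and 97 bases before their RefSeq starts. Nfkbia carried GGAAATTCCC, which reads GGGAATTTCC on the other strand, beginning 29 bases before its start. The same letters thus stood before a gene called higher, a gene called lower and a gene that was not called. However, the Nfkbia call held in only 10 of 20 alternatives, and Cxcl1 was called lower with the trend on GC content removed. The motif was found in the windows of 13 of 25 members (52%), against 12.3% of the tested genes with a window and 9.55% of all genes with one. It was in 20 of the 110 other pathway genes with a window (18.2%). The members were chosen as NF-kB genes and known targets, so their share is not independent of that choice. By call, it was in 2 of the 4 members that rose and 7 of the 11 that fell among those with a window. A match is a run of letters and not evidence of binding.

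Cxcl5 had the highest CPM of the members. It was at 2192, 2067, 2514 and 1371 CPM in the controls and at 3725, 4317, 4475 and 4539 CPM in overexpression libraries, with a mean of 2036 ± 482 against 4264 ± 371 CPM (SD, n = 4). The lowest overexpression library stood well above the highest control, library 3 (log2 fold change 1.07, SE 0.16, edgeR adjusted p = 0.00012), and the value was 0.67 with the trend on GC content removed. Summed over the 34 genes, the level ran from 5514 to 6746 CPM in the controls and from 6688 to 7957 CPM in overexpression libraries. Without Cxcl5 the order of the groups was the opposite, at 4053 to 4554 CPM in the controls and 2963 to 3482 CPM in overexpression libraries.

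Cxcl10, a ligand of CXCR3 that interferons also induce, was low but clearly apart between the groups. It was at 5.22, 4.88, 4.75 and 5.53 CPM in the controls and 13.0, 11.9, 15.4 and 16.3 CPM in overexpression libraries (log2 fold change 1.48, SE 0.15, edgeR adjusted p = 6.64e-06), the largest increase of any tested member. Cx3cl1, the membrane-bound chemokine fractalkine, was at 2.03, 1.18, 1.12 and 2.15 CPM in the controls and 3.08, 3.69, 4.79 and 4.32 CPM in overexpression libraries. Its groups did not overlap (log2 fold change 1.33, SE 0.26). Cxcl16, a transmembrane chemokine that also binds oxidised lipoprotein, had 53 and 70 counts over the groups. It was at 1.33, 0.697, 0.687 and 1.07 CPM in the controls and 1.89, 1.21, 0.697 and 1.34 CPM in overexpression libraries. The groups overlapped, and it was not called in the test or in any of the 19 alternatives that tested it.

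Of the 4 CC chemokines among the members, Ccl2, Ccl7 and Ccl20 fell and Ccl5 had too few counts to be tested. Over all genes tested, 32.1% were called lower. Ccl2 and Ccl7, neighbours 8.26 kb apart (chr11:82035571-82037453 and chr11:82045712-82047525, plus strand, GRCm38) that both attract monocytes through CCR2, fell together. Ccl2 was at 1300.0, 1117, 1103 and 892 CPM in the controls and 769, 649, 541 and 559.8 CPM in overexpression libraries. No overexpression library reached the lowest control, library 4 (log2 fold change -0.81, SE 0.14, edgeR adjusted p = 0.00036). Ccl7 was at 108, 89.6, 82.5 and 57.7 CPM in the controls and 47.8, 33.5, 24.7 and 32.5 CPM in overexpression libraries (log2 fold change -1.29, SE 0.21). In both genes library 1 was the highest and library 4 the lowest of the controls, and library 1 was the highest and library 3 the lowest of the overexpression group.

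Ccl20, the ligand of CCR6, was at 417, 376, 374 and 274 CPM in the controls and 166, 188, 209.7 and 208 CPM in overexpression libraries. The groups lay apart, again with control library 4 as the lowest control (log2 fold change -0.90, SE 0.14, edgeR adjusted p = 0.000121). All 3 of these CC chemokine genes are short, and their calls were lost with the trend on exonic length removed: the log2 fold changes were then -0.13 for Ccl2, -0.45 for Ccl7 and -0.34 for Ccl20 (edgeR adjusted p = 0.493, 0.0906 and 0.0769). With the median length of coding transcripts in place of exonic length, all 3 calls held, at -0.47, -0.95 and -0.56. Ccl5, a T cell chemokine, did not pass the count filter, with 10 counts over the controls and 60 over the overexpression libraries, which is 6.47 times as many after correction for depth (exact 95% interval from 3.28 to 14.2, which covers counting error alone). By library, Ccl5 was at 0.354, 0.268, 0.0624 and 0 CPM in the controls and 0.600, 1.21, 0.697 and 1.71 CPM in overexpression libraries. It was called higher when all genes with a count were tested (log2 fold change 2.58, edgeR adjusted p = 8.75e-04).

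Cytokine genes were mostly near the limit of detection. Il6, the inducer of the acute phase, had 0 counts in controls, which allows up to 0.0508 CPM over the group, and 3 counts in overexpression libraries. Tnf, the classical activator of NF-kB, had 19 and 21 counts, 0.329 ± 0.155 and 0.352 ± 0.212 CPM (SD, n = 4), and no difference was detectable at this depth. Csf1, the growth factor of macrophages, was abundant in contrast. It was at 528, 558, 520.0 and 579 CPM in the controls and 305, 333, 370.4 and 341 CPM in overexpression libraries (log2 fold change -0.70, SE 0.10, edgeR adjusted p = 9.41e-05). The call held in all 20 alternatives, and the value was -0.43 with the trend on GC content removed. Csf1r, its receptor, was lower too, with a log2 fold change of -1.40.

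The adhesion molecules moved in opposite directions. Vcam1, the ligand of VLA-4 integrin on leukocytes, was at 147, 158, 229 and 141 CPM in the controls and 221, 316, 435 and 377 CPM in overexpression libraries. Control library 3 lay just above overexpression library 1, and otherwise the groups were apart (log2 fold change 1.00, SE 0.20, edgeR adjusted p = 0.000907, and 0.64 or 0.59 with the trend on exonic length or on GC content removed). Icam1, the ligand of LFA-1 integrin, was far lower, at 6.81, 7.13, 3.87 and 8.52 CPM in the controls and 3.17, 4.29, 4.88 and 5.21 CPM in overexpression libraries. It was the called member nearest to the threshold (log2 fold change -0.58, SE 0.24, edgeR adjusted p = 0.0497), and 11 of 20 alternatives ended the call, among them leaving out control library 1, 2 or 4 (edgeR adjusted p = 0.0951, 0.114 and 0.146) or overexpression library 1, 2 or 3 (0.135, 0.0985 and 0.0642). Ptgs2, cyclooxygenase 2, was at 15.3, 17.1, 26.6 and 13.1 CPM in the controls and 21.3, 19.3, 14.6 and 15.5 CPM in overexpression libraries, so the groups overlapped (log2 fold change -0.03, SE 0.21, edgeR adjusted p = 0.902). It was called lower with the trend on GC content removed (-0.42, edgeR adjusted p = 0.0174).

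Of the acute-phase members, 1 was abundant. Lcn2, the siderophore-binding lipocalin 2, was at 238, 239, 172 and 270.0 CPM in the controls and 181, 271, 388 and 354 CPM in overexpression libraries. The overexpression libraries lay on both sides of the controls, and Lcn2 was not called (log2 fold change 0.38, SE 0.21, edgeR adjusted p = 0.126). It was called higher in 6 of 20 alternatives, including without overexpression library 1 (0.56, edgeR adjusted p = 0.0158) and with the trend on exonic length removed (0.68, edgeR adjusted p = 0.00756). Saa3, the serum amyloid A made outside the liver as well as in it, fell from 8.40, 6.59, 5.06 and 8.14 CPM to 3.17, 4.29, 5.58 and 3.27 CPM, the groups overlapping at control library 3 and overexpression library 3 (log2 fold change -0.78, SE 0.22, edgeR adjusted p = 0.0081). Its call was lost with the trend on exonic length removed (-0.48, edgeR adjusted p = 0.0536). Saa1 and Saa2, the main serum amyloids of liver, had 0 and 6 and 3 and 8 counts over the control and overexpression libraries. They lie 8.81 kb apart and are near-identical copies, so reads that fit both may have been shared or left uncounted. Their low counts may therefore understate their level.

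Control library 3 lay between the other controls and the overexpression libraries for many of these genes. It was the lowest control for 12 of the 15 members that fell and the highest control for 5 of the 7 that rose, the exceptions among the latter being Cxcl10 and Cx3cl1, where it was the lowest. Among the 7 not called it was the highest for Rel, Tnfaip3, Cxcl1 and Ptgs2 and the lowest for the other 3. Without it, 8 members were higher and 15 lower, against a background of 77.4% called.

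The counts of members depended on how gene length was treated. With the trend on exonic length removed from each library, 8 members were higher and 8 lower, and 7 of the 15 decreases remained: Nfkb1, Nfkb2, Rela, Relb, Nfkbib, Sod2 and Csf1. With the median length of coding transcripts in place of exonic length, 13 of the 15 remained. All 7 increases remained under both. With libraries scaled by totals alone, 9 members were higher and 12 lower. Of all genes tested, 60.6% were called with the exonic length trend removed, 62.3% with the coding transcript length trend removed and 64.1% with totals alone. Some members share exonic bases with a gene on the opposite strand, the largest shares being 18.3% of Cxcl16 with Zmynd15 and 14.5% of Nfkbib with Ccer2, and the strand setting of the counting was not stated, so reads of these pairs may be mixed. Nfkb2 (6.52% with Psd) and Cxcl10 (5.91% with Art3) overlap less.

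The surrounding pathway was described by 136 other genes in 7 lists, of which 104 passed the count filter. Of these, 47 were called higher and 26 lower, with a median log2 fold change of 0.33, against 32.3% higher and 32.1% lower over all genes tested. Of the 47, 4 (Ccl28, Fga, Fgb and Itih3) passed the filter through the overexpression libraries alone, so they had to differ, and without them 43 of 100 were higher. Receptors had 3 of 11 higher and 4 lower (median -0.18). Il1r1, the interleukin 1 receptor, rose by a log2 fold change of 1.51, from 16.4 ± 7.39 to 46.8 ± 1.07 CPM (SD, n = 4). Tnfrsf1b and Tlr2 had log2 fold changes of 0.53 and 0.51, calls lost on leaving out single libraries: control 1 or 2 or overexpression 3 or 4 for Tnfrsf1b, and control 1, 2 or 4 or overexpression 2, 3 or 4 for Tlr2 (edgeR adjusted p up to 0.107 and 0.115). Tnfrsf12a, the receptor of TWEAK, fell from 353 ± 91.2 to 141 ± 9.52 CPM (SD, n = 4), and Tlr4, the endotoxin receptor, and Il17rc had log2 fold changes of -0.61 and -0.53, the latter lost with the trend on exonic length removed.

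Adaptors and kinases had 10 of 26 higher and 7 lower (median 0.24), or 65.4% called, near the 64.4% of all genes tested. Traf6, Tab3 and Tab2, which link receptors to the kinase TAK1, had log2 fold changes of 1.00, 1.22 and 0.86, whereas Traf2, Myd88 and Irak2 had -0.65, -0.72 and -0.47. Negative regulators had 6 of 11 higher and 3 lower (median 0.43), or 81.8% called. The ubiquitin ligases Itch and Peli1 and the A20 partner Tax1bp1 had log2 fold changes of 1.29, 0.75 and 0.84, while Otulin, Tnip3 and Commd1 had -0.61, -0.90 and -0.40. The Otulin call was lost with the trend on exonic length removed (-0.10), and the Commd1 call without any of control libraries 1, 2 and 4 or overexpression libraries 1, 2 and 3 (edgeR adjusted p from 0.0609 to 0.167).

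Other known targets had 9 of 20 higher and 4 lower (median 0.41), or 65% called, near the 64.4% of all genes tested. Cd44, a hyaluronan receptor, rose from 245 ± 32.9 to 812 ± 72.6 CPM and Nos2, inducible nitric oxide synthase, from 30.2 ± 3.58 to 98.7 ± 11.9 CPM (SD, n = 4), and Il15 had a log2 fold change of 1.71. Bcl2l1, Gadd45b and Ier3, genes of survival and stress, had -1.15, -1.33 and -1.35. Of the other chemokines, 5 of 9 tested were called higher and 1 lower (median 0.65), or 66.7% called, also near the share over all genes. Without Ccl28, which passed the filter through the overexpression libraries alone and had 17 and 92 counts over the groups, 4 of 8 were higher. Ccl9 rose by 2.67 on the log2 scale, from 2.93 ± 0.438 to 18.7 ± 2.58 CPM (SD, n = 4), and Cxcl17 and Cxcl11 by 0.67 and 0.95, and Cxcl3, a further CXCR2 ligand, fell from 263 ± 34.3 to 149 ± 4.60 CPM.

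Signalling from interleukin 6 had 5 of 14 higher and 4 lower (median -0.02), or 64.3% called, near the 64.4% of all genes tested. The kinases Jak2 and Jak1 and the shared receptor chain Il6st had log2 fold changes of 1.65, 0.87 and 0.65, the last lost with the trend on exonic length removed (0.14). Cebpd, Lif and Cebpb had -1.43, -0.72 and -0.88; Cebpd and Cebpb encode transcription factors of the acute phase, and the Cebpb call was lost with the same correction (-0.30, edgeR adjusted p = 0.0745). Other acute-phase genes had 9 of 13 higher and 3 lower (median 0.97), or 6 of 10 higher without Fga, Fgb and Itih3. Of all genes tested, 32.3% were higher and 32.1% lower. Il1rn, the interleukin 1 receptor antagonist, rose from 15.2 ± 1.64 to 88.7 ± 25.6 CPM (SD, n = 4). The fibrinogen genes Fgb and Fga were at 0.460 ± 0.225 and 0.345 ± 0.183 CPM in the controls and 3.47 ± 0.428 and 2.96 ± 0.667 CPM in overexpression libraries (SD, n = 4). Mt2, metallothionein 2, fell from 169.9 ± 24.6 to 3.27 ± 0.530 CPM (SD, n = 4), and Hp, haptoglobin, and Hpx, hemopexin, had log2 fold changes of -2.82 and -1.60. The acute-phase genes as measured thus moved both ways.

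**Figure D4:**
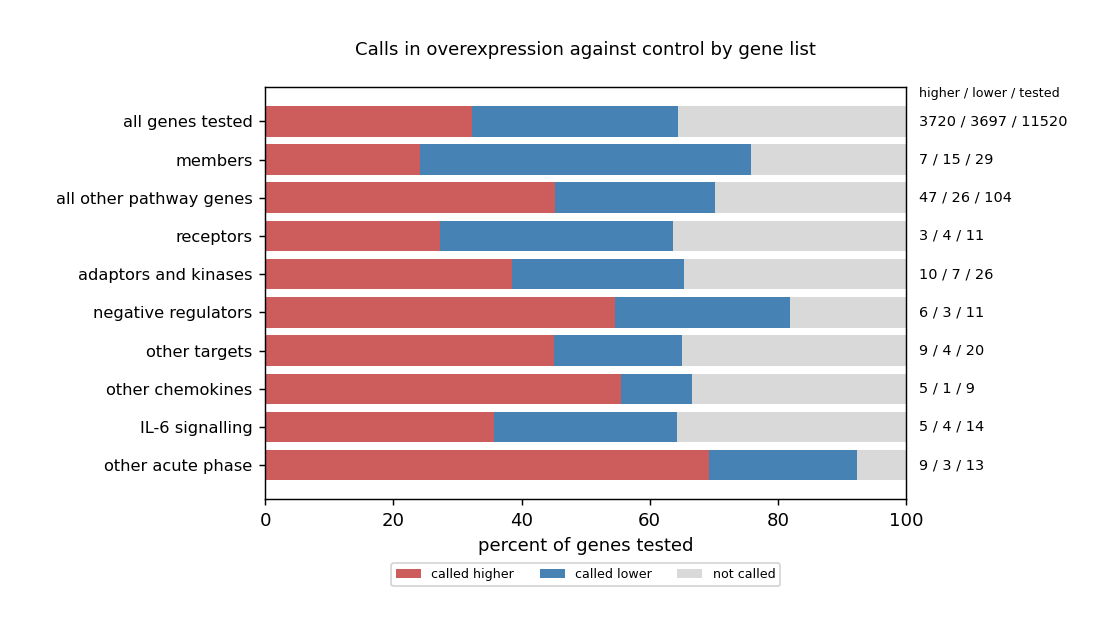
Percent of tested genes called higher, called lower or not called in each list, with the numbers higher, lower and tested at the right. The members have 7 higher and 15 lower of 29, the other pathway genes 47 higher and 26 lower of 104, and all genes tested 3720 higher and 3697 lower of 11520.

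Of the 10 macrophage markers, Cd14, which hepatocytes also express, was the most abundant, with a log2 fold change of -0.66, and the list's summed level ran from 829 to 1293 CPM in the controls and 601 to 750 CPM in overexpression libraries. The leukocyte list summed to at most 1.37 CPM in the controls and 2.00 CPM in overexpression libraries. In that list Laptm5 had 5 and 39 counts over the groups, and Ptprc had 39 and 32. The endothelial list ran from 0.187 to 0.691 CPM in the controls and from 1.60 to 2.27 CPM in overexpression libraries. Its marker Cdh5 had 7 and 71 counts over the groups. The 8 stellate cell and fibroblast markers summed to 3.56 to 5.47 CPM in the controls and 9.85 to 17.5 CPM in overexpression libraries, with Col1a2, Col3a1 and Lrat at 0 counts in all libraries. The tested markers of that list, Des and Col1a1, were both called higher. On average Des went from 3.95 to 11.3 CPM and Col1a1 from 0.802 to 1.87 CPM. The cholangiocyte list ran from 2896 to 4284 and from 4611 to 5231 CPM, with 1 marker higher (Spp1, 942 to 2729 CPM on average) and 2 lower (Krt19 and Sox9, log2 fold changes of -0.40 and -0.66). The hepatocyte list ran from 1740 to 2188 and from 1115 to 1163 CPM, with 2 of 8 tested lower (Ttr, 1320 to 278 CPM, and Serpina1a) and 2 higher (Alb, 22.3 to 267 CPM, and Apob), so its sum followed Ttr. The part of these differences in the members' results was not tested.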

How the data were processed

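The authors deposited 1 table of raw read counts per gene symbol for 8 RNA-seq libraries, made from Trizol-extracted RNA with an NEBNext Ultra kit per the labels' protocols. Per the submitters' processing notes, FastQC, STAR and HTSeq were used with the mm10 build. For versions, annotation and strand setting, the sources used here give nothing. The titles gave each library's group and number.

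The analysis used edgeR 4.0.16 under R 4.3.3: filterByExpr with a minimum count of 10, trimmed-mean scaling, and the two-sided quasi-likelihood test over all genes on a model of group alone, with p adjusted by Benjamini-Hochberg and a threshold of 0.05. CPM used the scaled library sizes. Standard errors were the log2 fold change over the square root of F. Lengths and positions came from GENCODE M21 on GRCm38, the assembly mm10 names, in which 21926 of 21983 symbols matched. Alternatives were other scalings and filters, DESeq2 1.42.0, limma-voom 3.58.1 with quality weights, a replicate block, leaving out each library, and trends on exonic length or GC content removed (lowess, span 0.3). The trend on median coding transcript length was added after seeing the data. The members, lists and tests were chosen with earlier results of these data known. Every member with a call or at least 50 counts is given by library, and of each other list up to 3 called genes per direction with the smallest p and at least 1 CPM. On simulated counts for 10954 genes, with 50 genes altered at each fold, the test found 48% of the genes altered 1.5-fold and 94% of those altered 2-fold. Of its 188 calls, 17 were false. The simulation altered a far smaller share of genes than was called in the data. It held no trend on length and no library apart from its group, so its rates may not carry over. Library pairs within a group differed by more than counting noise (chi-square per gene 2.44 to 106). A count of 0 was set at a limit of 3 counts per group, and intervals cover counting error only. Figures used matplotlib 3.10.9.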

Additional observations from a re-analysis of the deposited data

Results flagged for a closer look

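Among 58 groups of 4 libraries (29 members in each group), 4 held a library whose distance from the nearest other exceeded Dixon's 95% critical value of 0.829 of the range, where chance flags about 1 in 20. Control library 3 was the distant library in 3 of them. Rel was at 15.2 CPM there, against 8.04 to 8.49 in the other controls. Tnfaip3 was at 101 CPM, against 69.0 to 72.6. Birc3 was at 35.6 CPM, against 21.2 to 23.3. Traf1 was at 1.06 CPM in control library 1, against 0.624 to 0.691, which rests on few counts.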

How the results depend on the processing

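All 7 increases kept their call in the alternatives that tested them; a minimum count of 50 left Cx3cl1 untested and gave 6. Members lower numbered 8 with the trend on exonic length removed and 8 with that and the replicate block, against 15. Of all genes tested, 60.6% and 58% were called in those fits, against 64.4%. The cause was not tested. Leaving out 1 library gave 7 to 9 higher and 13 to 15 lower members, and 37 to 52 higher and 22 to 30 lower other pathway genes. The share of all genes called moved as well, from 57.2% without overexpression library 4 to 77.4% without control library 3. Directions turned for Rel (-0.14 with exonic length, -0.24 with GC content, -0.11 with exonic length and block, -0.43 with coding transcript length), Nfkbia (0.14 with exonic length, 0.13 with block as well), Cxcl1 (0.28, 0.29 and, with coding transcript length, 0.17) and Ptgs2 (0.082 with library totals, 0.12 with limma-voom, 0.0066 with the replicate block, and from -0.16 to 0.19 on leaving out 1 library, above 0 without control 3 or overexpression 3 or 4). Same-numbered libraries did not deviate together (correlations -0.119 to 0.0227), so no pairing by number was seen. So few correlations cannot show that there was none. The replicate block gave 7 higher and 15 lower members and 7129 changed genes against 7417. Of 40 other genes named, 33 kept their call throughout. Members under about 70 counts a group (Traf1, Cxcl16, Ccl5, Il6, Tnf, Saa1, Saa2) are limited by depth.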
